A study of Mus musculus with 112 samples.

Results

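The comparison set 28 amygdala arrays from mice dosed with 1 of 3 drugs that activate peroxisome proliferator-activated receptors (PPARs) against 9 amygdala arrays from mice given saline. These 37 arrays were taken by tissue and treatment in the sample titles, out of 112 in the series, which also holds 38 arrays of prefrontal cortex and 37 of liver. All mice were male C57BL/6J, an inbred strain, with no transgene or deletion named in the labels, and were dosed by mouth daily for 8 days. The fenofibrate group received 150 mg/kg and has 9 arrays, and the labels call the drug an agonist of PPARα. The tesaglitazar group, given a dual agonist of PPARα and PPARγ at 1.5 mg/kg, has 10 arrays. Bezafibrate, labelled a pan-PPAR agonist, was given at 75 mg/kg and has 9 arrays. Agonists were suspended in saline with a little Tween-80, and whether the saline of the control mice held the detergent is not given in the labels used here, nor are the age of the mice and the hour of dissection. Each agonist was given at 1 dose and the doses differ, so a difference between agonists is a difference between drug and dose together.

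PPARs are nuclear receptors that bind fatty acids and their derivatives, pair with a retinoid X receptor (RXR) on DNA, and recruit coactivators to switch on genes of lipid uptake, storage and oxidation. PPARα dominates in liver and other tissues that burn fat, PPARγ in fat cells, and PPARδ is found in most tissues, brain included. The amygdala is a group of nuclei in the temporal lobe that processes fear, reward and stress, and its central part is rich in GABA neurons that carry peptides.

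The mean raw intensity of an array lay between 305 and 447 units, and 46.4 to 50.6% of the 45281 probes were above background. Arrays of the same group correlated at a median of 0.988 across probes, which are not independent replicates, and none held identical values. The design text gives 10 mice per group, and p-values measure the spread between these arrays, whose number limits the precision. Of 11 genes fixed as markers of amygdala, 10 were tested, and the mean level of the list lay between 7.81 and 8.98 on the log2 scale over the 37 arrays. Its lowest value was the array labelled saline 25, which stood apart in several results below and is left out of them in turn.

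Titles end in a number, which runs from 1 to 20 and again from 21 to 40, and within each run the treatments follow each other in the order saline, tesaglitazar, bezafibrate, fenofibrate. Saline arrays therefore carry the numbers 1, 2, 4 and 5 and 21 to 25. Each run holds 14 agonist arrays, and the labels do not say what the numbers stand for.

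No probe passed the test between the pooled agonist arrays and saline. The pooled difference is the mean of the 3 agonist groups, each counted equally, minus the saline mean, on the log2 intensity scale. Limma with Benjamini-Hochberg adjustment called 0 of 23803 probes at an adjusted p under 0.05 (0%), with a smallest adjusted p of 0.458. At an unadjusted p under 0.05 there were 1658 probes (6.97%), of which 880 were higher and 778 lower in the agonist arrays, where 1190 would be expected if no probe differed. The intervals were narrow: for 96.1% of probes the 95% interval lay wholly within 0.5 on the log2 scale on both sides of 0, and the median interval reached 0.15 to each side.

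Each agonist by itself gave the same count. Fenofibrate against saline gave 0 calls (0%), and its smallest adjusted p in limma was 0.219. An unadjusted p under 0.05 was reached by 2064 probes. Tesaglitazar gave 0 (0%) with 1513, and its smallest adjusted p was 0.0589. For bezafibrate the counts were 0 (0%) and 1216, with a smallest adjusted p of 0.203. These contrasts share the same saline arrays. All 3 agonists had an unadjusted p under 0.05 in the same direction at 0.517% of probes, 69 higher and 54 lower. A test for any difference among the 3 agonists called 0 probes (0%), with 1865 at an unadjusted p under 0.05. Of the 3 pairs of agonists, adjusted over all pairs and probes together, fenofibrate against tesaglitazar gave 0 calls (0%), with 92.4% of intervals within 0.5. The pair fenofibrate and bezafibrate also gave 0 (0%), with 91.4%, as did tesaglitazar and bezafibrate (0%), with 92.3%. A p that misses the threshold does not show that the agonists act alike.

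The probes with the smallest p in the pooled comparison are given by their values, since none passed. The size of many differences depended on the processing: on the authors' processed values 36 of 69 named genes had a difference more than 1.5 times smaller, with 0.09 for Chia1, -0.05 for Agtpbp1 and -0.04 for Olfr924 against 0.32, -0.34 and -0.27 below. Fam184a, a gene of a coiled-coil protein, was 7.90 to 8.47 with a median of 8.28 on saline arrays. On fenofibrate arrays it was 8.34 to 8.66 around 8.52, on tesaglitazar arrays 8.36 to 8.70 around 8.48, and on bezafibrate arrays 8.21 to 8.75 around 8.48. All 9 saline arrays lay below the median of the agonist arrays, and 18 of 28 agonist arrays lay above every saline array. Its pooled difference was 0.25 ± 0.06 (SE), with an adjusted p of 0.458 in limma, and 2 dimmer probes of the gene gave 0.15 and 0.08.

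Fdps encodes farnesyl diphosphate synthase of the cholesterol pathway. Its saline arrays ran from 8.72 to 9.80 around 9.54, and the tesaglitazar arrays, from 9.25 to 10.09, shared that median of 9.54. Fenofibrate arrays lay at 9.59 to 10.33 and bezafibrate arrays at 9.66 to 10.50, with medians of 9.83 and 10.10. The pooled difference was 0.43 ± 0.11, with 0.49 for fenofibrate, 0.19 for tesaglitazar and 0.64 for bezafibrate. A dimmer Fdps probe gave 0.02.

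Chia1, an acidic chitinase, was 5.17 to 6.18 on saline arrays, 5.90 to 6.42 on fenofibrate, 5.97 to 6.50 on tesaglitazar and 5.99 to 6.51 on bezafibrate arrays. Its lowest value was saline 25, the other saline arrays beginning at 5.90, and the pooled difference of 0.32 was 0.23 without that array. Cdo1, cysteine dioxygenase, which starts the breakdown of cysteine to taurine, had medians of 9.68 on saline, 9.97 on fenofibrate, 9.90 on tesaglitazar and 9.81 on bezafibrate arrays. Its pooled difference was 0.33 ± 0.08, and 12 of 28 agonist arrays lay above every saline array.

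Of the lower probes, Tmem178, a transmembrane protein of the endoplasmic reticulum, had medians of 9.38 on saline, 8.80 on fenofibrate, 9.11 on tesaglitazar and 9.18 on bezafibrate arrays. The pooled difference was -0.42 ± 0.11, and 13 of 28 agonist arrays lay below every saline array. Rasgrf1, a calcium-responsive activator of Ras in neurons, gave -0.32 ± 0.08 on the probe of smallest p, with 17 of 28 agonist arrays below every saline array. Without saline 25, the highest saline array at 9.34, that difference was -0.25, and 3 other Rasgrf1 probes, among them both brighter ones, gave -0.07, -0.10 and -0.10. Rap2a, a small GTPase, gave -0.19 on a dim probe and 0.10 on the bright one, so its probes disagreed in direction. For Agtpbp1, which trims glutamates from tubulin, and the odorant receptor gene Olfr924, the differences were -0.34 and -0.27 on probes above background on only 13 of 37 arrays. The 2 other Agtpbp1 probes gave -0.04 and -0.06.

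The difference between agonists and saline depended on the numbering run. Saline arrays hold the lowest numbers of each run. Within a run, a difference by treatment therefore cannot be told apart from a difference by position in the numbering. Within numbers 1 to 20, agonist and saline arrays differed at 917 probes (3.85%), of which 696 were higher with the agonists and the rest lower. Within numbers 21 to 40 they differed at 1736 probes (7.29%), 463 higher and 1273 lower, and without saline 25 at 2886, 908 higher and 1978 lower. The pooled difference itself differed between the runs at 3152 probes (13.2%) by limma's interaction contrast, and at 3147 of these it had opposite signs in the runs. The count of opposite signs is partly built in, since these probes were chosen by a large difference between the runs. For 2032 of the 3152 the difference was lower in the later run (8.54%), and for 1120 it was higher (4.71%). Without saline 25 the count was 4567. The split depended on scaling, since centring each array on its median gave 2046 higher and 1967 lower. With the treatment in the fit, the run itself was called at 1345 probes (5.65%). Averaged over both runs, 0 probes were called (0%), with 1808 at an unadjusted p under 0.05. At an unadjusted p under 0.05 in both runs, 55 probes (0.231%) had the same sign, 31 higher and 24 lower, against 1846 (7.76%) with opposite signs. The counts within a run and between the runs rest on the same arrays and are not independent.

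**Figure D1:**
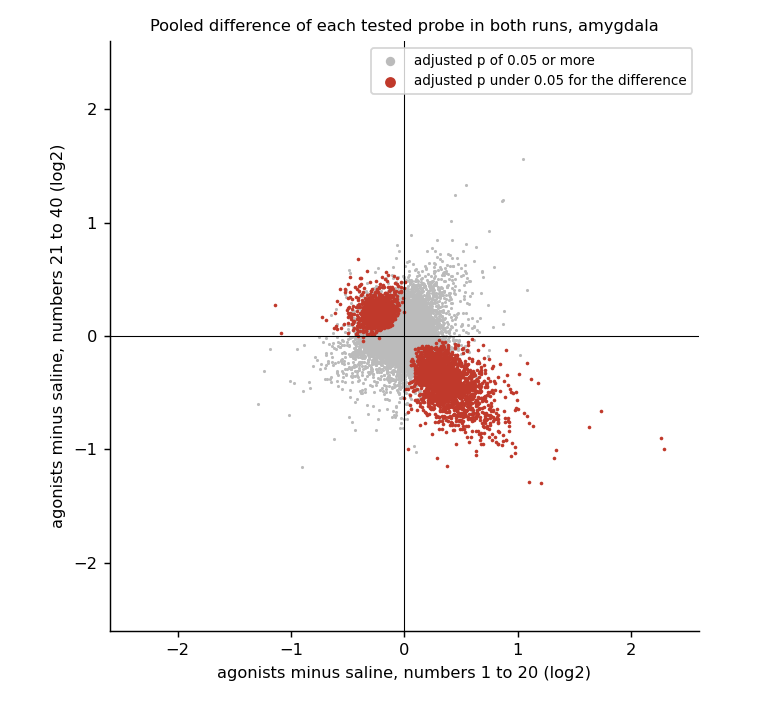
Each point is 1 of 23803 probes, with its agonist minus saline difference in numbers 1 to 20 on the x axis and in numbers 21 to 40 on the y axis, both in log2 units. The 3152 probes in red, whose difference differed between the runs at an adjusted p under 0.05, lie almost wholly in the 2 quadrants of opposite sign. Choosing them by that difference partly fixes where they lie.

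Meg3, a long noncoding RNA of an imprinted cluster, showed the pattern most plainly, and it and the genes beside it were picked after their values were seen. Saline 1, 2, 4 and 5 were at 8.66, 8.63, 8.38 and 8.43. Agonist arrays of that run were higher throughout, at 8.98 to 10.21 for tesaglitazar, 9.03 to 9.92 for bezafibrate and 9.78 to 10.31 for fenofibrate. In the later run saline 21 to 24 were at 10.06, 10.01, 9.86 and 9.93, while saline 25 was at 8.25. The agonist arrays of that run were at 7.91 to 8.58 for tesaglitazar, 8.20 to 8.67 for bezafibrate and 7.86 to 8.92 for fenofibrate. Meg3 thus stood 1.20 ± 0.22 higher with the agonists in numbers 1 to 20 and 1.30 lower, at -1.30 ± 0.21, in numbers 21 to 40. The difference between the runs was -2.50 ± 0.30, with an adjusted p of 8.78e-06 in limma, while the pooled value over both was -0.12. Another Meg3 probe gave 0.86 and -0.96. Levels did not step at the boundary between numbers 20 and 21: saline 21 to 24 lay beside the agonist arrays of the earlier run, and saline 25 beside those of the later one.

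Kcnq1ot1, another long noncoding RNA of an imprinted region, gave 1.14 and -0.79 in the runs, and the sodium bicarbonate cotransporter gene Slc4a4 gave 0.89 and -0.76. Tatdn2, of a family of nucleases, and Ppip5k1, an inositol pyrophosphate kinase, went the other way, with -0.38 and 0.51 for Tatdn2 and -0.57 and 0.41 for Ppip5k1. The adjusted p of the difference between the runs was at most 3.22e-05 for these 4 genes in limma. Dimmer probes did not all share the pattern. A Kcnq1ot1 probe gave 0.14 and 0.21, and Slc4a4 probes gave -0.04 and 0.09, and 0.20 and -0.17. The dimmer Ppip5k1 probe gave -0.23 and 0.18. Between the 2 sets of saline arrays alone, of 4 and 5 arrays, 156 probes differed (0.655%), Meg3 by 1.10 and Ppip5k1 by -0.79. The later set includes saline 25. Between the 2 sets of agonist arrays, of 14 each, 5706 probes differed (24%), 2972 higher and 2734 lower in the later run. These 2 counts cannot be set against each other, since the median interval reached 0.25 to each side for saline and 0.14 for the agonists.

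**Figure D2:**
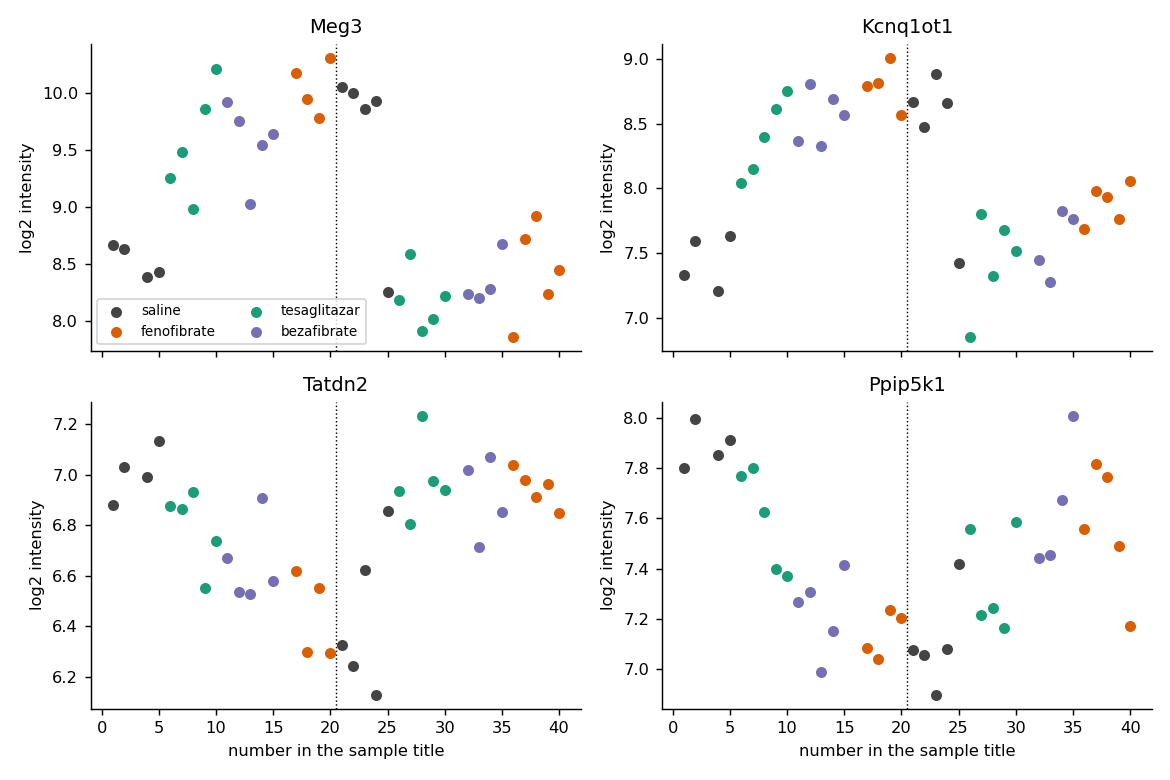
Log2 intensity of 4 genes on each of the 37 amygdala arrays, by the number in the sample title, coloured by treatment, with a dotted line between numbers 20 and 21. For Meg3, saline 1 to 5 lie at 8.38 to 8.66 and saline 21 to 24 at 9.86 to 10.06, while saline 25 at 8.25 lies with the agonist arrays that follow it.

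Partners of the receptors were among the genes whose pooled difference depended on the run. Of 11 tested PPARs and partners, 6 differed between the runs, 5 lower and 1 higher in the later one, where 8.54% of all probes were lower and 4.71% higher. Crebbp, an acetyltransferase that PPARs recruit as a coactivator, was 6.73 to 7.51 on saline 1 to 5 and 7.03 to 8.37 on the agonist arrays of that run. On saline 21 to 25 it was at 8.34, 8.48, 8.12, 8.09 and 6.95, and on the agonist arrays of that run at 6.90 to 7.49. Its pooled difference was 0.73 in the earlier run and -0.81 in the later one. Ep300, its relative, gave 0.61 and -0.45, Ppargc1a and Ppargc1b, inducible coactivators of mitochondrial genes, 0.35 and -0.62 and 0.49 and -0.54, and the coactivator Ncoa2 0.28 and -0.56. Rxrb was the gene that moved the other way, with -0.19 and 0.14. Over all 37 arrays the pooled differences of these 6 genes lay between -0.16 and 0.04. A dimmer Ncoa2 probe gave 0.08 and 0.05 in the runs and a dim Crebbp probe 0.01 and -0.02. The remaining probes of Crebbp, Ep300 and Rxrb also had opposite signs in the runs.

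Other measures moved with the runs. The first principal component of the arrays held 20.7% of the variance and was 1.13 to 15.6 on saline 1 to 5, between -28.1 and 2.26 on the agonist arrays of that run, and between -1.79 and 30.7 on those of the later run. Saline 21 to 24 scored -21.7 to -2.16 and saline 25 scored 36.6. Probes without a gene symbol made up 26.8% of those lower in the later run, 8.75% of those higher and 16.2% of all tested. The median pooled difference of 16 oligodendrocyte genes was -0.26 in the earlier and 0.27 in the later run, with 2 of 16 called, Cnp and Olig2, both higher. That count is near the 13.2% of all probes called by the same contrast, and in bulk tissue fewer cells of a type and less RNA per cell cannot be told apart. Their part in the result was not tested. In prefrontal cortex, where the titles carry the same range of numbers, the pooled difference differed between the runs at 0 of 23079 probes (0%), with 1440 at an unadjusted p under 0.05 in limma.

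No PPAR receptor or target gene passed the pooled test in amygdala. Ppara was above background on 0 of 37 arrays and was not tested. Ppard, the most widely expressed receptor, was 8.41 to 8.78 on saline arrays and 8.32 to 8.77 on agonist arrays, and its pooled difference was -0.03 ± 0.05. Pparg, near the dim end at 4.78 to 5.86, gave 0.02 ± 0.11, with -0.18 for fenofibrate, 0.00 for tesaglitazar and 0.24 for bezafibrate. Rxra gave 0.14 and Rxrb -0.02. Rxrg, the form of the retinoid X receptor found in striatum, gave 0.45 ± 0.14, with 0.67 for fenofibrate, 0.58 for tesaglitazar and 0.10 for bezafibrate and an adjusted p of 0.521 in limma. Its lowest level, 6.13, was on saline 25. The Rxrg difference was 0.32 without that array and 0.22 on the authors' processed values.

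Of 33 PPAR target genes, 15 were tested in amygdala and 0 were called. At an unadjusted p under 0.05, 3 were higher and 1 lower, where 3.7% and 3.27% of all probes were, and their median pooled difference was -0.01, beside 0.000662 over all probes. Without saline 25 the counts were 1 and 0. Pdk4, a kinase that shuts pyruvate out of oxidation, was 6.31 to 6.91 on saline and 6.03 to 6.80 on agonist arrays, a pooled difference of -0.12 with a 95% interval from -0.28 to 0.05. By run it was -0.36 in the earlier, with an adjusted p of 0.0323 in limma, and 0.11 in the later, and the runs differed by 0.47 at an adjusted p of 0.015. On the same probe in liver it was higher by 2.37, and there the interval was 1.87 to 2.88. Angptl4, an inhibitor of lipoprotein lipase, gave 0.06 in amygdala and 0.89 in liver. The lipid droplet coat gene Plin2 gave 0.03 and 1.33. For the acyl-CoA thioesterases the values were -0.14 and 2.997 for Acot1 and -0.10 and 3.60 for Acot2. In all of these the amygdala interval of the main fit excluded a difference of 0.5, while each liver interval lay above 0.5. Acot2 and Plin2 were dim in amygdala, at 4.21 to 5.15 and 4.32 to 5.67, so their intervals do not exclude a change hidden by background. With position in the run as a covariate, Pdk4 was -0.36, Acot1 -0.45, Acot2 -0.22, Plin2 0.23 and Angptl4 -0.08.

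The 4 targets with the smallest p in amygdala were Plin4, Cpt1b, Slc27a2 and Lpl. Plin4, which coats lipid droplets, was 4.65 to 5.69 on saline arrays around 4.93, with medians of 5.41 on fenofibrate, 5.84 on tesaglitazar and 5.12 on bezafibrate arrays. Its pooled difference was 0.50 ± 0.17, and 0.10 on the authors' processed values. It was 0.20 in the earlier run and 0.75 in the later one, where it passed with an adjusted p of 0.00783 in limma, while the runs were not shown to differ, at 0.177. Cpt1b, of the carnitine shuttle that feeds fatty acids into mitochondria, gave 0.20 in amygdala and 2.93 in liver. Its amygdala difference in the earlier run was 0.36, with an adjusted p of 0.0978 in the fit of both runs and 0.0407 with that run fitted by itself, both in limma. Slc27a2, a fatty acid transporter, gave 0.18 and 0.30. Lpl, lipoprotein lipase, pointed in opposite directions, with -0.43 in amygdala and 2.22 in liver. Liver values leave out the libraries labelled saline 4 and tesaglitazar 6, which stand apart from their groups. With them Pdk4 was 1.56 and Acot2 2.81, and 4385 of 19984 liver probes were called (21.9%), against 6940 without them (34.7%). Ehhadh, a peroxisomal oxidation enzyme that was above background on at most 1 amygdala array, gave 3.82 in liver.

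**Figure D3:**
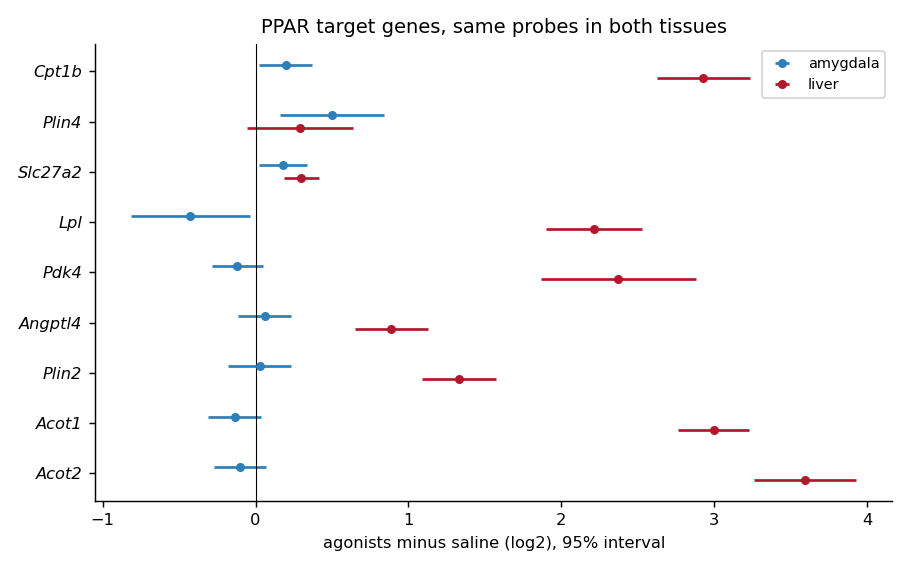
Pooled agonist minus saline difference in log2 units with its 95% interval for 9 PPAR target genes, in amygdala (blue) and in liver (red, without the libraries labelled saline 4 and tesaglitazar 6). All amygdala values lie between -0.43 and 0.50, and the liver values reach 3.60.

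Other lipid and energy lists stayed near the background. Of 17 tested genes of mitochondrial fatty acid oxidation, 0 were called and 0 had an unadjusted p under 0.05, with a median of -0.02, and the same held for 54 genes of oxidative phosphorylation, with a median of -0.03. Of 17 peroxisomal genes, 1 was lower at an unadjusted p under 0.05, where 3.27% of all probes were lower and 3.7% higher. Fdps was the single gene of 13 in cholesterol synthesis to reach that level, and the list's median was -0.01. In fatty acid synthesis, Acacb, which makes the malonyl-CoA that blocks Cpt1, gave 0.27 and its regulator Srebf1 gave 0.18, and the other 9 tested genes did not reach it. Gpx1, glutathione peroxidase, was the highest of 11 antioxidant genes by p, at 0.17 ± 0.06.

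On their brightest probes, the clock genes Dbp, Ciart, Per1 and Per2 had differences above 0 with each agonist and in both runs. They are the 4 of their list with the smallest p, and the contrasts share the saline arrays, so this is partly built in. A dim Per1 probe gave -0.43 and -0.06 in the runs. In the circadian clock, the proteins CLOCK and BMAL1 bind E-boxes, the letters CACGTG, and drive the genes of their own repressors, among them Per1, Per2 and Ciart, and of the output factor Dbp. Of 14 tested clock genes, 4 were higher and 0 lower at an unadjusted p under 0.05, where 3.7% and 3.27% of all probes were. Of the 14, 0 were called, and 0 differed between the runs. Without saline 25, 3 were higher. The median pooled difference of the list was 0.08. The promoters of Ciart and Per1 are shown because they are the searched clock genes whose windows held an E-box. They are given with E-boxes in capitals, 5′ to 3′, from RefSeq on GRCm38.p6, from 250 bases before to 50 after the start of transcription.
Ciart, chr3:95882179-95882478, minus strand: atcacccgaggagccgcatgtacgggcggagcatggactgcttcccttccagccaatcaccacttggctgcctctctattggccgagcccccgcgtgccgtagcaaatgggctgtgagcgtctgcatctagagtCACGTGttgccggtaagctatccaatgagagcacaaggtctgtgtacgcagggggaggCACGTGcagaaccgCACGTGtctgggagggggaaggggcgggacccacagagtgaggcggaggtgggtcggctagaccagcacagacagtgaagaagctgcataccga
Per1, chr11:69098699-69098998, plus strand: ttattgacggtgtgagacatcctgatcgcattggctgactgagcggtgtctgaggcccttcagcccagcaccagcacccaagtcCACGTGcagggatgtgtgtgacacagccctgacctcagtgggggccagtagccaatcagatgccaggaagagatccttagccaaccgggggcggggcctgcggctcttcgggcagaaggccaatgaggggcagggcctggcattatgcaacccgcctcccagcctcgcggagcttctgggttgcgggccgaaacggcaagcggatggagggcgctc
Counted from the start, the Ciart window held E-boxes beginning at -116, -58 and -44, and the Per1 window held 1 at -166. A second Per1 start in RefSeq, with the window chr11:69099902-69100201, held 0. Among 32851 RefSeq promoters of that length, 7.15% held CACGTG, a palindrome and so the same on both strands. The window of Dbp, chr7:45704997-45705296, held 0. Of the genes searched outside the clock list, Plin2 held 1 at -4, and Pdk4, Acot1, Acot2 and Rasgrf1 held 0. Per2, Angptl4, Cpt1b and Fdps had no promoter entry. A PPAR response element of 2 AGGTCA repeats spaced by 1 base, searched on both strands, was in 0 of these windows and in 0.0396% of all promoters. A match is a string of letters and not a measured binding site.

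Dbp, a transcription factor that carries the clock's rhythm to its output genes, was 11.10 to 11.57 on saline arrays, with a median of 11.37. On fenofibrate arrays it was 11.42 to 11.86 around 11.73, on tesaglitazar arrays 11.43 to 11.82 around 11.59, and on bezafibrate arrays 11.31 to 11.76 around 11.60. Thus 17 of 28 agonist arrays lay above every saline array and 27 of 28 above the saline median. The pooled difference was 0.24 ± 0.06, with a p of 0.000126 and an adjusted p of 0.458 in limma, and it was 0.19 and 0.28 in the runs.

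Ciart, a repressor of CLOCK and BMAL1 that has the 3 E-boxes above, was 7.49 to 8.22 on saline arrays around 7.75. The agonist medians were 8.26 for fenofibrate, 8.12 for tesaglitazar and 8.12 for bezafibrate, and 12 of 28 agonist arrays lay above every saline array. Its pooled difference was 0.34 ± 0.09, 0.23 and 0.43 in the runs, and its 2 other probes gave 0.28 and 0.24. Per1 gave 0.15 ± 0.06 on its bright probe, 0.06 on another and -0.23 on another, dim one, and Per2 gave 0.13 and 0.09 on its 2 probes. Arntl, which encodes BMAL1 itself, gave -0.16 ± 0.11.

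In prefrontal cortex 8 of 23079 probes were called by the pooled test (0.0347%), 7 higher and 1 lower, and Dbp, Ciart and Per2 were among the higher ones. Single agonists differed more in that tissue: fenofibrate against saline gave 1381 calls of 23079, 589 higher and 792 lower, tesaglitazar 0 and bezafibrate 3. There Dbp was 11.23 to 11.55 on saline arrays and 11.50 to 11.94 on agonist arrays, and its pooled difference was 0.33 ± 0.04 with an adjusted p of 6.34e-05 in limma. Ciart rose by 0.43 with an adjusted p of 0.00697 and Per2 rose by 0.40 with an adjusted p of 0.0142, while Per1 gave 0.34 with an adjusted p of 0.134. The tissues were not shown to differ: amygdala minus prefrontal cortex was -0.09 ± 0.07 for Dbp, -0.09 ± 0.12 for Ciart and -0.26 ± 0.10 for Per2, and over 24464 probes 0 were called by that contrast (0%), with 1713 at an unadjusted p under 0.05 in limma. In liver, without the same libraries, Ciart was higher by 1.10 and Dbp by 0.08.

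**Figure D4:**
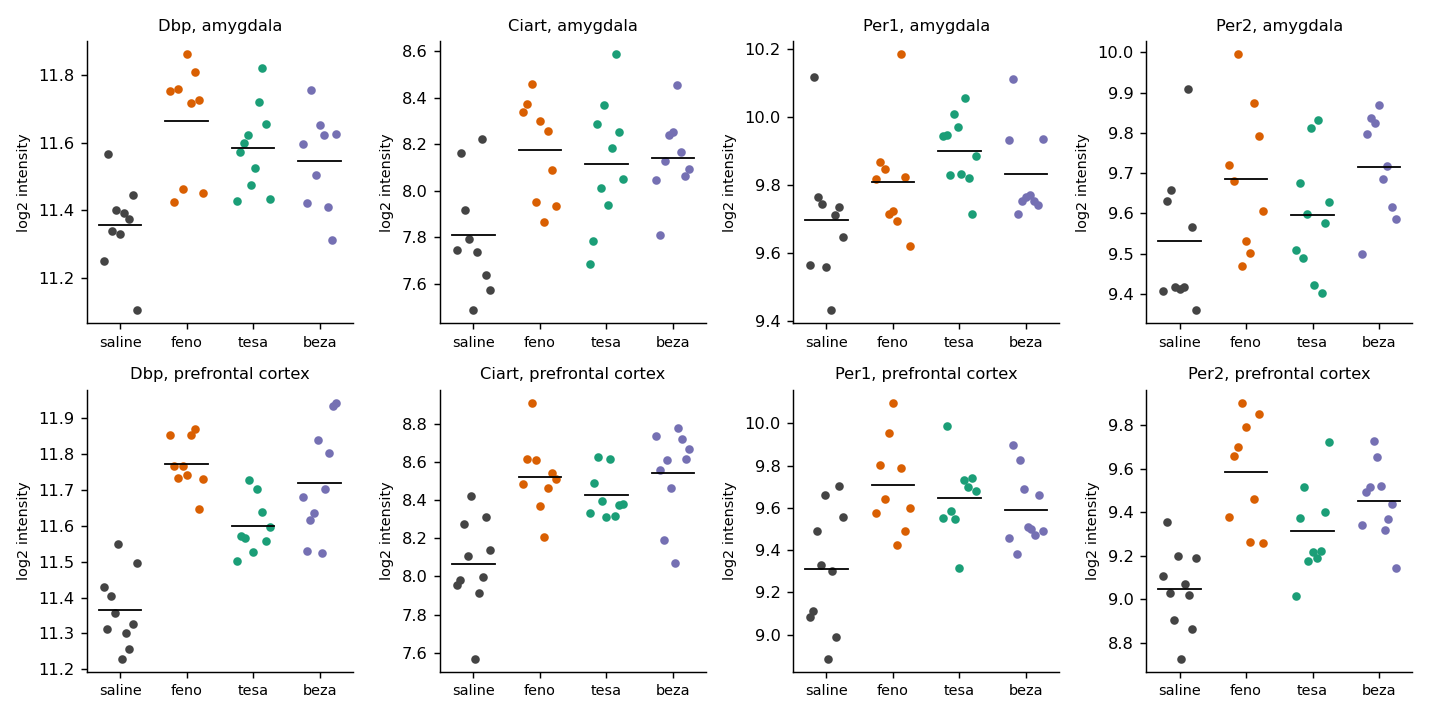
Log2 intensity of Dbp, Ciart, Per1 and Per2 on each array of amygdala (top) and prefrontal cortex (bottom) by treatment, with black lines at group means (feno, fenofibrate; tesa, tesaglitazar; beza, bezafibrate). In prefrontal cortex the highest saline value of Dbp, 11.55, lies below most agonist arrays, and in amygdala the saline arrays reach 11.57 and overlap with the agonist arrays more.

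Markers of neighbouring brain regions had some of the larger pooled differences, none past the adjusted threshold. C1ql2, a synaptic protein of dentate granule cells in the hippocampus, was 8.30 to 11.07 on saline arrays with a median of 9.85. Its medians were 8.08 on fenofibrate, 8.54 on tesaglitazar and 8.75 on bezafibrate arrays, and 12 of 28 agonist arrays lay below every saline array. The pooled difference was -1.07 ± 0.29, with an adjusted p of 0.458 in limma, and -0.89 without saline 25. Prox1, the transcription factor of the same cells, gave -0.38, with 6.20 to 7.51 on saline arrays around 6.71 and medians of 6.37, 6.30 and 6.38 on fenofibrate, tesaglitazar and bezafibrate arrays. Wfs1, on the hippocampal list but also a marker of the central amygdala, gave 0.42. The mean level of the 5 tested hippocampal genes was 8.19 to 10.19 on saline, 8.06 to 9.35 on fenofibrate, 7.83 to 9.31 on tesaglitazar and 7.88 to 9.41 on bezafibrate arrays, and its part in other results was not tested.

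Genes shared by striatum and central amygdala had pooled differences above 0. Of 10 tested striatal genes all 10 had a pooled difference above 0, and 6 were higher at an unadjusted p under 0.05, against 3.7% of all probes, but without saline 25 only 1 of the 10 had. Ppp1r1b, which encodes the dopamine-regulated phosphatase inhibitor DARPP-32, was 8.57 to 9.96 on saline arrays, with medians of 9.57 on saline, 9.94 on fenofibrate, 10.36 on tesaglitazar and 9.50 on bezafibrate arrays. It gave 0.54 ± 0.16, made up of 0.53, 0.88 and 0.22 for the agonists in that order. The dopamine receptors Drd1 and Drd2 gave 0.55 and 0.51, and Drd2 was 0.62 with fenofibrate, 0.94 with tesaglitazar and -0.02 with bezafibrate. Without saline 25, whose Drd1 level was the lowest, Drd1 was 0.30. The mean level of the striatal list was 7.22 to 8.35 on saline, 7.73 to 8.74 on fenofibrate, 7.78 to 9.08 on tesaglitazar and 7.57 to 8.02 on bezafibrate arrays.

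Among neuropeptides, too, most of the low p-values were on the higher side. Of 17 tested amygdala peptides and receptors, 6 were higher and 2 lower at an unadjusted p under 0.05, beside 3.7% and 3.27% of all probes, and the median was 0.18. Without saline 25 the counts were 3 and 1. Tac1, the precursor of substance P, was 8.03 to 10.24 on saline arrays, 9.55 to 10.45 on fenofibrate, 9.79 to 10.45 on tesaglitazar and 9.25 to 10.04 on bezafibrate arrays. The pooled difference was 0.55 ± 0.14 and was 0.39 without saline 25, which held the lowest value. Penk, the enkephalin precursor, gave 0.72, Tac2, that of neurokinin B, 0.52, and Meis2, a homeobox gene of the intercalated and central nuclei, 0.47. Cartpt, the CART peptide precursor, gave 0.52, and 0.24 without saline 25. Bezafibrate had the smallest difference from saline of the 3 agonists in Tac1, Penk, Tac2 and Meis2, at 0.32, 0.16, 0.25 and 0.29.

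Transcripts on the marker lists of hypothalamus and of choroid plexus varied from array to array. Avp, vasopressin, was 4.35 to 7.36 on saline arrays with a median of 5.03, 4.82 to 10.81 on fenofibrate, 5.20 to 9.22 on tesaglitazar and 4.39 to 8.14 on bezafibrate arrays. Its pooled difference was 1.34 ± 0.53, with an adjusted p of 0.584 in limma. Oxytocin, Oxt, was above background on 18 of 37 arrays and gave 0.74, and Pmch, the precursor of melanin-concentrating hormone, gave 0.65. Both peaked on fenofibrate 37, at 9.50 and 8.70. Clic6, a chloride channel protein of the choroid plexus, gave 1.10 ± 0.45, and 4 agonist arrays stood at 10.48 to 11.22 while saline arrays ended at 8.08. The mean of 10 tested choroid plexus and ependymal genes was 5.60 to 6.47 on saline arrays and reached 8.82, 8.39 and 9.39 on fenofibrate, tesaglitazar and bezafibrate arrays.

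**Figure D5:**
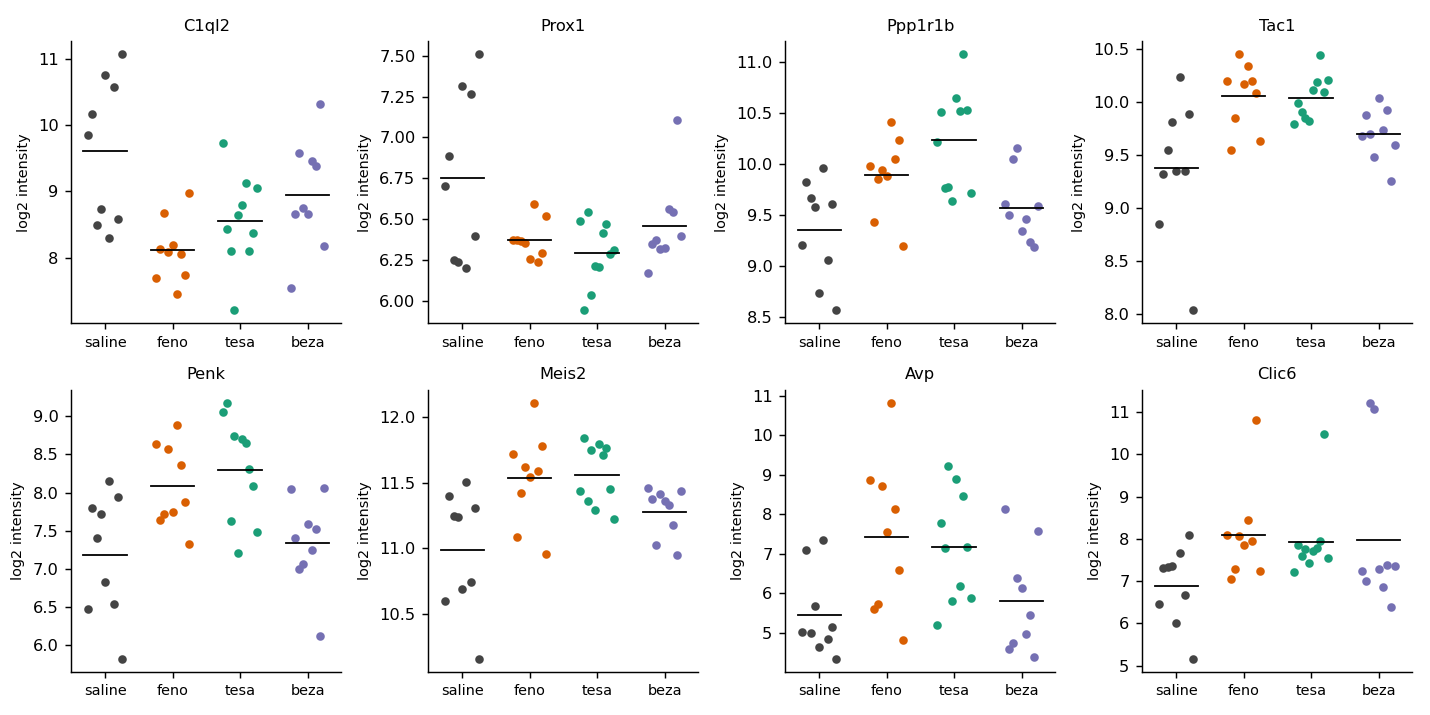
Log2 intensity of 8 genes that mark regions or cell types of or near the amygdala, on each array by treatment, with black lines at group means (feno, fenofibrate; tesa, tesaglitazar; beza, bezafibrate). C1ql2 and Prox1 are lower and the other 6 genes higher on average with the agonists, with overlapping groups in every panel.

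Of 13 tested GABA genes 4 were higher and 0 lower at an unadjusted p under 0.05, with 3.7% and 3.27% over all probes, and 2 were higher without saline 25. Gad2, which makes GABA, gave 0.27 ± 0.09, with 0.38 for fenofibrate, 0.34 for tesaglitazar and 0.09 for bezafibrate, and the receptor subunit gene Gabrg1 gave 0.34. Of 21 glutamate genes 2 were higher and 5 lower by the same measure, and without saline 25 these counts were 1 and 1. The vesicular transporter gene Slc17a7, a marker of cortical and basolateral excitatory neurons, gave -0.21, with -0.50 in the earlier and 0.03 in the later run, which differed at an adjusted p of 0.032 in limma. Grm8, a presynaptic glutamate receptor, gave 0.46, and 0.29 without saline 25. Faah and Mgll, the enzymes that break down the endocannabinoids anandamide and 2-arachidonoylglycerol, gave -0.28 and -0.21.

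Cell type lists gave few low p-values. Neither 11 astrocyte, 13 microglial, 16 oligodendrocyte, 8 neuronal nor 4 blood genes held any at an unadjusted p under 0.05. Of 14 endothelial and mural genes 3 were lower, or 1 without saline 25, where 3.27% of all probes were, among them Cldn5, the tight junction protein of brain vessels, at -0.29 ± 0.09, with -0.53 in the earlier and -0.08 in the later run. In the glucocorticoid list, Fkbp5 gave -0.07 and Sgk1 gave 0.12. Of its 15 genes 3 were higher and 0 lower at an unadjusted p under 0.05, where 3.7% and 3.27% of all probes were. Plin4 and Per1 were among the 3, and without saline 25 the count of higher genes was 4. Of 13 immediate early genes, which mark recent neuronal activity, 0 were higher and 1, Bdnf, was lower by the same measure. Without saline 25 these counts were 1 and 0. Bdnf gave -0.33 ± 0.13, and -0.24 without saline 25, while its dimmer probes gave 0.03, 0.005, -0.13 and -0.30. Fos, at 6.81 to 9.71 on saline arrays, gave 0.37 ± 0.31.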

How the data were processed

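RNA of amygdala, prefrontal cortex and liver was hybridised to Illumina mouse bead arrays. The deposited table gives a raw intensity and a detection p-value per probe and array, per the file headers, and 8 of its array columns that match no sample used here were left out. The authors' processed log2 values, deposited beside it and made with lumi per the submitters' processing notes, served as an alternative. The settings of that processing are not given in the sources used here.

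Intensities of each tissue were background-corrected with normexp on negative control signal estimated from detection p-values, offset 16, quantile normalized and taken to log2 (neqc, limma 3.58.1, R 4.3.3). Probes with a detection p under 0.05 on at least 9 arrays were kept, 23803 in amygdala. Models with 1 mean per treatment, or per treatment and numbering run, were fitted with lmFit and eBayes, and p-values were adjusted by Benjamini-Hochberg over all probes at a threshold of 0.05. Probes were named through the platform annotation and current RefSeq symbols: 34885 of 45281 have 1 symbol, 18 several and 10378 none. The 12182 genes tested stand on 19947 of the 23803 probes.

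Members and gene lists were chosen with earlier results of these data known. Named genes are the 5 smallest p each way, a fixed set of PPAR, clock and stress genes, and up to 4 genes of smallest p per list, by the brightest tested probe, or by the probe of smallest p for the first kind. Others are said to be picked after their values were seen. Alternatives changed the background correction, scaling, filter, weights, grouping, numbering terms, group or array left out, and source of values. Leaving saline 25 out of the list counts and the run contrasts, and averaging over runs, were chosen after seeing the data. Titles of amygdala and prefrontal cortex arrays share numbers, whose meaning the labels do not give. Of 35 pairs of the same number, 15 had deviations from group means that correlated above 0.1, and the median was 0.0667. The tests were checked on simulated data with independent noise and no shift with the title number. That check therefore does not bear on shifts of that kind in these arrays. Figures were drawn with matplotlib 3.10.9 in Python 3.11.15.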

Additional observations from a re-analysis of the deposited data

Results flagged for a closer look

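Of 276 groups of 9 or 10 arrays checked over 69 named genes, 22 held an array that stood apart from the others of its group by Dixon's test at 95%, where chance gives about 14. Saline 25 was such an array for Chia1 at 5.17 (others 5.90 to 6.18), Rasgrf1 at 9.34 (8.42 to 8.86), Cartpt at 6.89 (9.12 to 9.97) and Grm8 at 5.85 (6.83 to 7.69). Bezafibrate 34 was for Prox1 at 7.11 (6.17 to 6.56), Wfs1 at 9.48 (10.00 to 10.35), Grm8 at 6.53 (7.19 to 7.81) and Faah at 10.27 (9.57 to 9.89). On fenofibrate 37, Pmch was 8.70 (4.83 to 6.09) and Oxt 9.50 (4.49 to 6.40), and Pmch was 7.71 on tesaglitazar 6 (4.60 to 6.24). Clic6 was 10.82 on fenofibrate 39 (7.06 to 8.44) and 10.48 on tesaglitazar 29 (7.21 to 7.94). Per1 was 10.12 on saline 2 (9.43 to 9.76) and 10.19 on fenofibrate 38 (9.62 to 9.87). Plin2 was 4.48 on fenofibrate 19 (4.87 to 5.15) and 4.32 on bezafibrate 12 (4.91 to 5.08). Single cases were Cdo1 at 10.35 on tesaglitazar 28, Agtpbp1 at 4.91 on fenofibrate 18, Angptl4 at 7.12 on bezafibrate 33, Tac2 at 7.34 on bezafibrate 35 and Ncoa2 at 5.81 on tesaglitazar 10.

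The pooled difference differed between the numbering runs at 3152 probes (13.2% of those tested), by a test of that difference, and at 15 of the 69 named genes. Some of the 69, among them Meg3, Kcnq1ot1, Slc4a4, Tatdn2 and Ppip5k1, were picked for this same difference, so the count of 15 is partly built in. The difference in numbers 21 to 40 minus that in 1 to 20 was -2.50 for Meg3, -1.93 for Kcnq1ot1, -1.65 for Slc4a4, -1.54 for Crebbp, -1.06 for Ep300, -1.04 for Ppargc1b, -0.97 for Ppargc1a and -0.84 for Ncoa2. It was 0.99 for Ppip5k1, 0.91 for Cnp, 0.90 for Tatdn2, 0.53 for Slc17a7, 0.47 for Pdk4, 0.42 for Olig2 and 0.32 for Rxrb. Their adjusted p-values in limma lay between 8.78e-06 and 0.0375, and the cause was not tested.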

How the results depend on the processing

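The pooled comparison in amygdala gave 0 calls in limma under all alternatives that use both runs: background correction, scaling, filter, weights, 1 agonist group, a run or position term, an agonist left out, the authors' values and averaged probes, with 976 to 2548 probes at an unadjusted p under 0.05. Leaving out each array in turn also gave from 0 to 0 calls, with 1014 (without saline 25) to 2057 at that level. Fitted by themselves, numbers 1 to 20 gave 1173 calls and numbers 21 to 40 gave 1178, with a pooled difference of 1.20 for Meg3, 0.73 for Crebbp, 0.49 for Ppargc1b and -0.38 for Tatdn2 in the former, and -0.79 for Kcnq1ot1, -0.76 for Slc4a4, -0.45 for Ep300 and 0.41 for Ppip5k1 in the latter, each opposite in sign to the value over all arrays, and the cause was not tested. With the run as a block, bezafibrate gave 2 calls in place of 0, and prefrontal cortex 14 in place of 8, or 21 with median centring. The run itself was called at 1345 probes, at 835 without a filter, 3274 with array weights and 5975 in agonist arrays alone. The difference between the runs gave 3152 calls, 4792 with array weights and, in an alternative chosen after seeing the data, 4567 without saline 25. Liver gave 6940 without the libraries labelled saline 4 and tesaglitazar 6 in place of 4385. Amygdala minus prefrontal cortex gave 1 call in place of 0 when a replicate block by title number was added, a number the samples only share, since 3 of 35 arrays correlated best with their own, and 1 with median centring. Of 3653 values of named genes, 2553 without 1 array each and 1027 of the 1100 others moved by less than the spread within groups. The count of 2553 could not have come out otherwise. In groups of this size, leaving out 1 array cannot move the difference by as much as that spread. That count therefore does not bear on how stable the values are. With position in the run, which follows treatment order, as a covariate, 17 of the 69 named genes turned sign, among them Tmem178 (0.03), Per2 (-0.08), Arntl (0.25), Cldn5 (0.29), Srebf1 (-0.37), Gpx1 (-0.12), Mgll (0.07), Cpt1b (-0.02), Sgk1 (-0.19) and Fos (-2.20). The authors' processed values turned 1 sign and made 36 differences more than 1.5 times smaller, among them Drd2 (0.14), Tac2 (0.16), Avp (0.54), Oxt (0.21), Acacb (0.07), Cpt1b (0.03) and Plin4 (0.10). Without saline 25, 4 turned sign and 7 were smaller by that factor. The causes were not tested. Signal over background limits Agtpbp1 and Olfr924, above background on 13 of 37 arrays, and Acot2, on 24.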
